A study of Mus musculus with 9 samples.

Results

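The comparison described here sets kidney cortex of mice given cisplatin against kidney cortex of mice given saline, 4 days into the experiment. It uses 6 of the 9 RNA-seq libraries of the series, 3 a side, and every one of the 17963 genes for which expected counts were deposited. All 6 libraries came from wild-type (WT) mice. The control group received saline into the peritoneum and pure water by gavage, and the cisplatin group received a cisplatin solution into the peritoneum with the same water, so gavage and water are shared. Another group of 3 libraries, given cisplatin together with Yishen Jiangzhuo decoction (YSJZD), entered only the estimate of the spread. Strain, sex, age and cisplatin dose are not in the labels used here, and the labels do not say whether each sample came from its own mouse, so every p-value reflects only how far these libraries vary, which may be technical. The cortex is the outer part of the kidney and holds the glomeruli, the proximal tubules, the distal and connecting tubules and the first part of the collecting ducts.

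Cisplatin is a platinum drug against cancer that binds DNA and forms crosslinks within and between its strands. Cells of the proximal tubule take it up from the blood through transporters of organic cations and copper, and these cells, above all those of the last segment, S3, are known as the main site of its damage in the kidney. Surviving tubule cells are known to lose their differentiated features for a time and to take up a state with keratins, matrix receptors and regulators of kidney development before they repair.

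The 6 libraries held 15033546 to 16690471 expected counts, and the 3 control and the 3 cisplatin libraries lay at opposite ends of the first principal component, which held 68.7% of the variance over the 9 libraries. Cisplatin replicate 3 stood apart from the other cisplatin libraries on the third component (48.8 against -14.3 and -22.7 for replicates 1 and 2). Its values are therefore shown beside those of the others, and values without it are given where they differ. Defining markers of cortex were present, with the proximal tubule gene Slc34a1 at 7726 ± 1321 CPM (counts scaled to library size and composition, SD, n = 3) and the podocyte gene Nphs1, which encodes nephrin, at 15.8 ± 2.52 CPM in control. Markers of skeletal muscle summed to at most 0.543 CPM in any of the 6 libraries, and those of mast cells, eosinophils and basophils to at most 0.437 CPM. The 5 urothelial markers, 4 uroplakins and Krt5, summed to 2.18, 13.4 and 16.6 CPM in control and to 5.43, 1.26 and 52.9 with cisplatin, highest in cisplatin replicate 3, and 0 of the 5 passed the test described next. In a bulk sample of this kind, fewer cells of a type and less RNA per cell cannot be told apart.

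Of 13954 genes that passed the filter on low counts, 7616 (54.6%) passed at an adjusted p under 0.05 in edgeR's quasi-likelihood test, 3987 of them (28.6% of those tested) higher with cisplatin and 3629 (26.0%) lower. Throughout, "rose" and "fell" are used only of genes that passed this test. The rise reached further than the fall: 1309 genes rose and 722 fell at least 4-fold, 364 and 167 at least 16-fold, and 124 and 47 at least 64-fold. Of the 6338 genes that did not pass, 4300 had a 95% interval that lay within 2-fold of no change, so that for these a change of that size is outside the interval. In 8846 of the 13954 tested genes (63.4%) the control and cisplatin libraries did not overlap, in either direction. The scatter of mean levels shows both sides of the response.

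**Figure D1:**
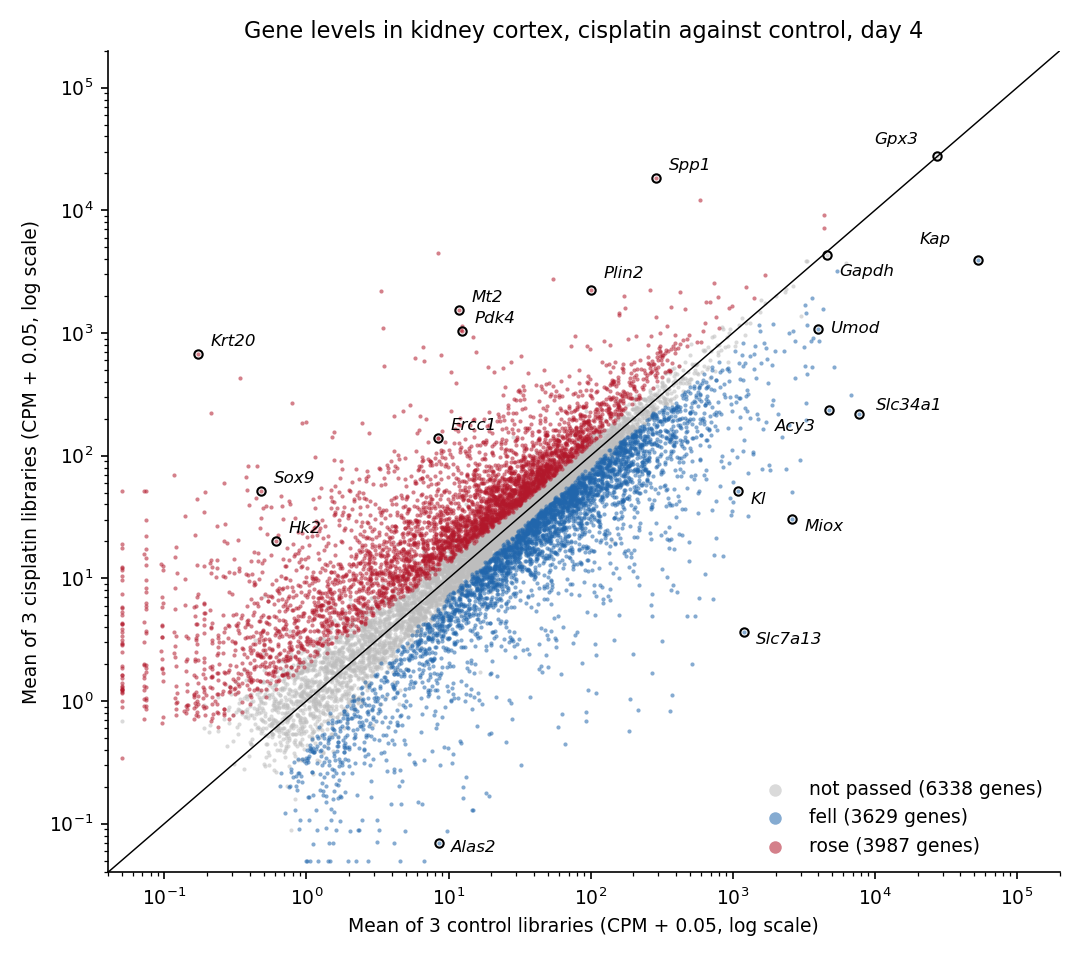
Mean level of each of 13954 tested genes in the 3 control libraries (x axis) and the 3 cisplatin libraries (y axis), in CPM with 0.05 added so that zeros can be drawn, both on log scales. Red genes rose (3987), blue genes fell (3629) and grey genes did not pass (6338), and the named genes lie up to several orders of magnitude from the diagonal of equal levels, except Gpx3 and Gapdh, which lie on it.

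The make-up of the RNA moved with it. Genes that rose held 12.7%, 12.7% and 13.3% of all CPM in the control libraries and 40.1%, 40.7% and 43.4% in the cisplatin libraries. Genes that fell held 55.5%, 55.7% and 55.1% in control and 22.1%, 22.4% and 21.0% with cisplatin. These shares follow from the calls and describe their weight. The fallers were the more abundant kind: of 2690 genes with at least 100 CPM in either group, 773 (28.7%) rose and 1139 (42.3%) fell. Expression was also spread over more genes, since the first 50% of all counts lay in 506, 551 and 619 genes in control and in 870, 851 and 700 genes with cisplatin.

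The most abundant genes differed between the groups. The gene with the highest level per transcript length in control was Kap (Entrez gene 16483), which encodes the androgen-regulated kidney protein of the proximal tubule, at 106552 ± 16396 FPKM (fragments per kilobase of transcript, scaled to sequencing depth, SD, n = 3). It stood at 56105, 61121 and 42347 CPM in the 3 control libraries and at 4517, 2041 and 5180 with cisplatin, a log2 fold change of -3.76 ± 0.44 (± SE). Its groups do not overlap, and it was still the fourth most abundant gene with cisplatin, at 9088 ± 3670 FPKM. Of the 15 genes of highest FPKM in control, 9 fell, 2 rose and 4 did not pass. Fallers among them were Acy3, an aminoacylase, with 5005, 4918 and 4368 CPM in control and 155, 340.30 and 211 with cisplatin (-4.34 ± 0.34), and Miox, the kidney's inositol oxygenase, with 2472, 2233 and 3145 CPM against 20.8, 39.3 and 31.2 (-6.42 ± 0.61). Fxyd2, a regulatory subunit of the sodium pump, fell less, from 2679, 2296 and 1938 to 587, 771 and 769 CPM (-1.70 ± 0.19).

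With cisplatin the leading place went to Gpx3, the glutathione peroxidase that the proximal tubule secretes into plasma, which did not pass the test. Gpx3 stood at 37244, 26076 and 19088 CPM in control and 28397, 24575 and 29936 with cisplatin, and its groups overlap (0.01 ± 0.26, 95% interval -0.56 to 0.58). Second was Spp1 (Entrez gene 20750), which encodes the secreted phosphoprotein osteopontin, at 206 ± 15.2 FPKM in control and 15033 ± 6101 with cisplatin. Spp1 stood at 10869, 16397 and 27620 CPM in the cisplatin libraries against 298, 269.78 and 296 in control. Mt1 and Mt2, which encode the zinc- and platinum-binding metallothioneins, were also among the 15 most abundant genes with cisplatin. Mt2 (Entrez gene 17750) rose from 10.3, 11 and 13.8 to 1500, 1471 and 1614 CPM (7.02 ± 0.25), with no overlap. Fth1, the heavy chain of the iron store ferritin, rose from 4969, 4274 and 3919 to 7061, 7604 and 12976 CPM (1.07 ± 0.27), while Ftl1, the light chain, did not pass (0.24 ± 0.24). Mt1 and Mt2 are close paralogs and ferritin genes have many copies in the genome, so the authors' counting may divide reads between them imperfectly. Entrez gene 105246811, which has no symbol in the reference table, stood at 8141, 6650 and 21955 CPM with cisplatin against 1026, 650.30 and 86.9 in control. Its fitted rise moved from 4.38 to 5.05 without control replicate 1 and to 3.65 without cisplatin replicate 3.

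Large gains in counts were in Plin2, Clu and Tsc22d1. Plin2, which coats lipid droplets, rose from 103, 103 and 94.2 to 2425, 1696 and 2551 CPM (4.47 ± 0.35). Clu, which encodes the secreted chaperone clusterin, stood at 763, 3127 and 2132 CPM with cisplatin and was low in replicate 1 among these, against 160.15, 214 and 144 in control (3.54 ± 0.52). Tsc22d1, a transcription regulator, rose from 280.29, 285 and 225 to 2446, 2108 and 2112 CPM (3.08 ± 0.18). Large losses were in Acsm2 (7060, 7493 and 5738 to 274, 326 and 336 CPM, -4.44 ± 0.37), which activates medium-chain acids, and in Keg1 (3174, 3554 and 3023 to 78.4, 209.97 and 297 CPM, -4.06 ± 0.45), a kidney gene of the glycine acyltransferase family. None of these groups overlap.

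At the other end stood genes near no change. By the bounds of the 95% interval, the 8 genes nearest to no change among those at 50 CPM or more in both groups were Prpf6, Fnbp1, Nfx1, Sbf2, Btf3l4, Zbtb7a, Hnrnpk and Seh1l. Prpf6, a splicing factor of the U4/U6.U5 particle, stood at 61.2, 56.8 and 58.7 CPM in control and 61, 55.5 and 61.9 with cisplatin (95% interval -0.22 to 0.25 on the log2 scale). Hnrnpk, an abundant RNA-binding protein, stood at 320.45, 327 and 292 and 336, 300.11 and 309.60 CPM (95% interval -0.25 to 0.27). Gapdh, often used as a reference, stood at 5187, 4464 and 4115 CPM in control and 4533, 4087 and 4284 with cisplatin (-0.09 ± 0.16, 95% interval -0.46 to 0.27), whereas Actb, the cytoskeletal actin also used so, rose from 619.51, 655 and 634 to 1426, 1156 and 1019 CPM (0.92 ± 0.22). These statements rest on composition scaling: with library totals alone every log2 fold change shifts upward, and the median of all genes stands at 0.27 in place of 0.04.

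**Figure D2:**
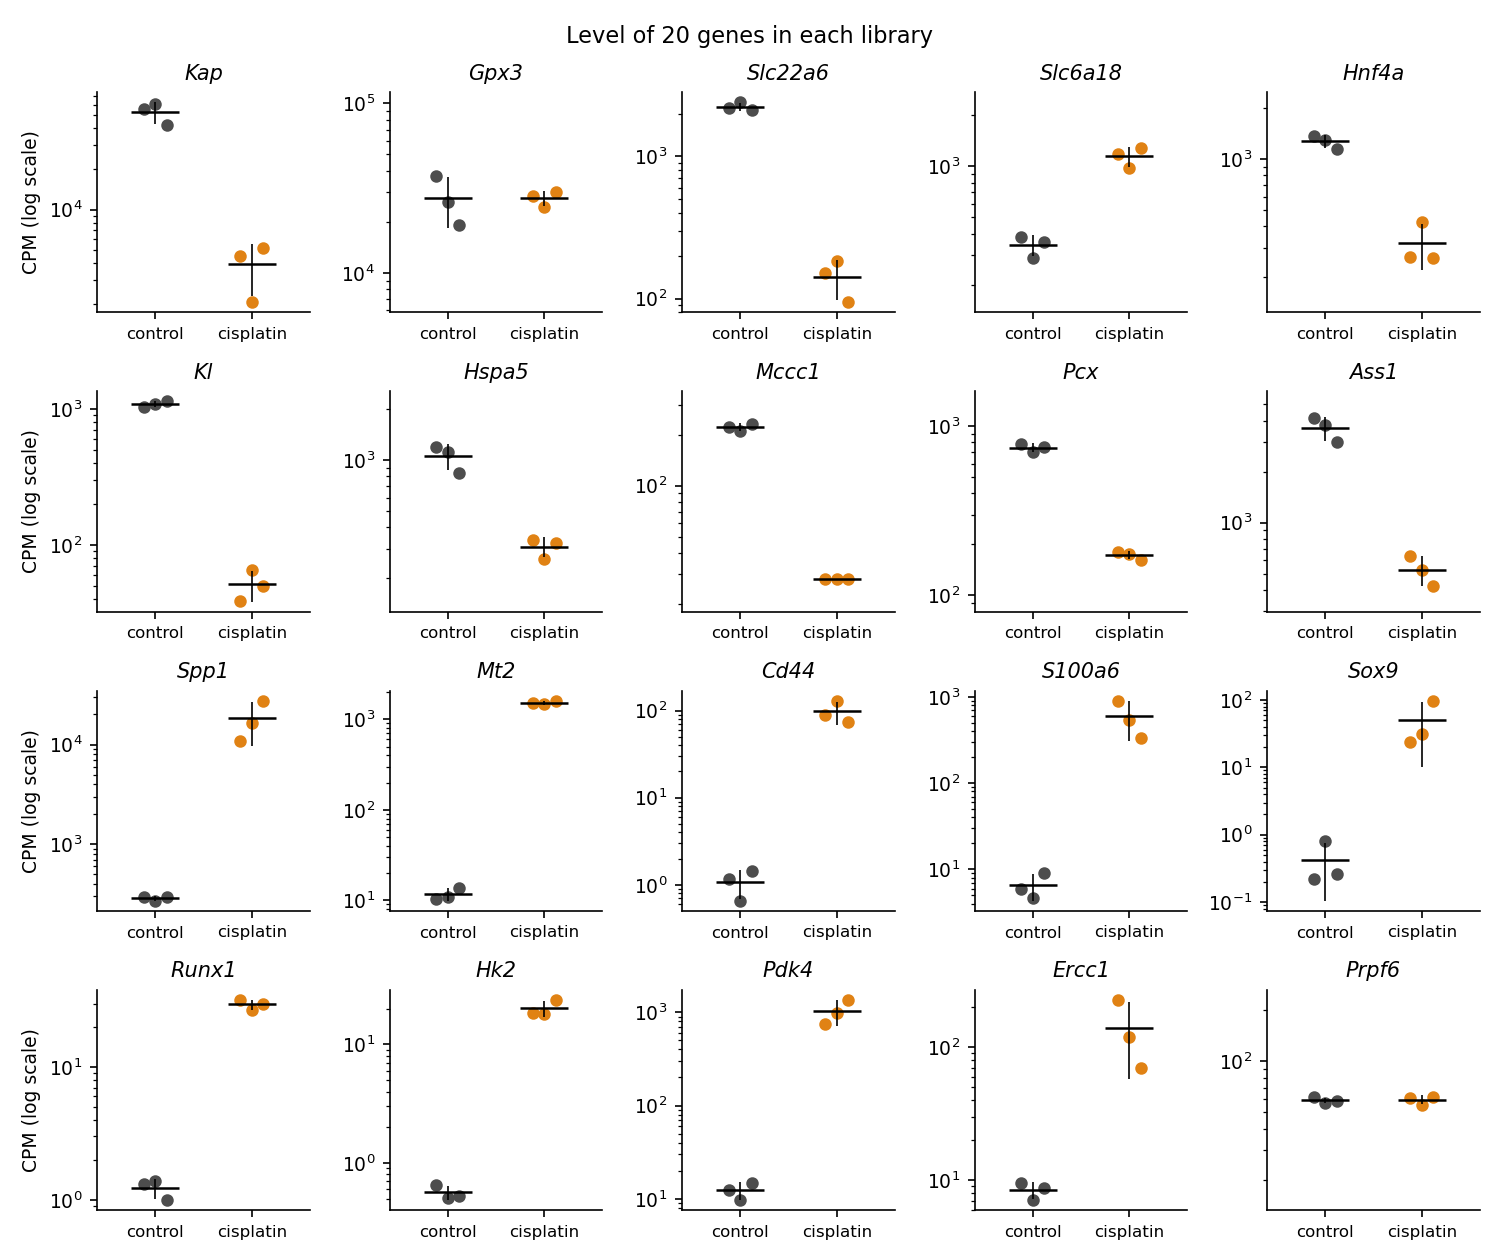
Level of 20 genes in each of the 3 control libraries (grey points) and 3 cisplatin libraries (orange points), in CPM on log scales that differ between panels, with the mean (horizontal line) and the SD (vertical line). The groups are apart in 18 of these chosen panels, beside 63.4% of all tested genes, and Gpx3 and Prpf6 overlap.

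Regulatory sequence is shown for 4 genes with large shifts in level, 1 for each of 4 motifs. Each had the largest change in mean level among the searched genes that hold its motif. Searched were genes that rose, or genes that fell, at least 2-fold, whichever had the larger share with the motif. Not every chromosome was searched. The 4 motifs are those of 15 searched, on both strands, whose shares differed most between genes that rose and genes that fell. Only 76.8% of the risers and 79.3% of the fallers of at least 2-fold had a stretch in the reference table, so that comparison is void and nothing is read from it. The stretches are the 250 bases before the transcription start in RefSeq on GRCm38.p6, written 5′ to 3′ on the gene's strand, with the motif in capitals. In Mt2 and Ctsd, which rose, the capitals mark an AP-1 site (TGANTCA) and 2 antioxidant response element cores (TGACNNNGC, 1 of them on the other strand). In Ass1 and Umod, which fell, they mark a metal response element in its G form (TGCGCNC) and a CCAAT box (CCAAT).
Mt2, chr8:94172368-94172617, plus strand: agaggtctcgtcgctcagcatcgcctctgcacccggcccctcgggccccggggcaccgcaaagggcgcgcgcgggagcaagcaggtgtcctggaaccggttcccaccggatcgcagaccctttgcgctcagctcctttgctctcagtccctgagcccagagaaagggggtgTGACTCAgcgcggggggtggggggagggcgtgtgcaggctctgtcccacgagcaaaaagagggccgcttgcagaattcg
Ctsd, chr7:142387828-142388077, minus strand: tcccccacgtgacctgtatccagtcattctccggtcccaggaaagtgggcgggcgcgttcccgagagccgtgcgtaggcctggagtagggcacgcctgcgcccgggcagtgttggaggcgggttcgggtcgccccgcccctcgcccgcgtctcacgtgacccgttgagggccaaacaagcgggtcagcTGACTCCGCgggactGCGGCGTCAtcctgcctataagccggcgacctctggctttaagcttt
Ass1, chr2:31470020-31470269, plus strand: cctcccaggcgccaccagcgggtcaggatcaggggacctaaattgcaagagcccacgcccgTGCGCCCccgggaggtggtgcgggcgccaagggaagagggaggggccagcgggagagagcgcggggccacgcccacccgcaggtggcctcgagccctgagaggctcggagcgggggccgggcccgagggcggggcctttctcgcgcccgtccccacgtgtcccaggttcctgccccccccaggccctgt
Umod, chr7:119479263-119479512, minus strand: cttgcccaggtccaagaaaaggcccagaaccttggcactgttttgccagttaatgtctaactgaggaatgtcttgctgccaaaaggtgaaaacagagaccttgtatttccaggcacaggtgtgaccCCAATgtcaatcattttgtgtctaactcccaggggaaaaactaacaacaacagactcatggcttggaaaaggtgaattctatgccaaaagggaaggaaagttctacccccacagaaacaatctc
Of 32851 such stretches in the reference table, 6.75% hold the AP-1 site, 10.2% the antioxidant core, 12.5% the metal response element and 33.8% the CCAAT box on either strand, and the Mt2 site matches both of the first 2 motifs, since they overlap. Only the chosen motif of each gene is in capitals. The Mt2 stretch also holds 2 metal response elements in another form, A, and 1 in the G form, and the Ctsd stretch holds 1 in the G form. A match describes the letters and not a bound site. Mt2 rose 130.19-fold. Ctsd, the lysosomal protease cathepsin D, stood at 739 ± 64.2 CPM in control and 2559 ± 522 with cisplatin (1.79 ± 0.26). Ass1, which makes argininosuccinate on the route to arginine, fell from 4124, 3789 and 2982 to 634, 526 and 423 CPM (-2.78 ± 0.22). Umod, which encodes uromodulin of the thick ascending limb, stood at 4190, 2553 and 5119 CPM in control and 542, 1062 and 1619 with cisplatin (-1.88 ± 0.41).

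Most markers of the proximal tubule fell. Of 12 genes that mark its first segments, S1 and S2, 8 fell and 0 rose, with a median log2 fold change of -2.06. Slc22a6, the organic anion transporter of the basolateral side, stood at 2180, 2410 and 2123 CPM in control and 152, 182 and 94 with cisplatin (-3.97 ± 0.26). Slc5a2, the sodium glucose cotransporter SGLT2, fell from 631, 492 and 427 to 76.9, 85.1 and 109 CPM (-2.51 ± 0.22). The 4 members that did not pass were named after their values were seen: Slc2a2, the basolateral glucose carrier (0.51 ± 0.20), the bicarbonate cotransporter Slc4a4 (-0.00 ± 0.18), the neutral amino acid transporter Slc6a19 (-0.06 ± 0.30) and the lactate transporter Slc5a12 (-1.48 ± 0.65). Slc6a19 overlaps Slc6a19os in the annotation, which rose (5.36), and their reads may not be told apart. Of 12 genes that mark segment S3, 10 fell and 1 rose, with a median of -3.26. The cystine and aspartate transporter Slc7a13 had the deepest fall in the list, from 1350, 1154 and 1077 to 3.85, 3.2 and 3.79 CPM (-8.37 ± 0.41). The riser was Slc6a18, an amino acid transporter of the late proximal tubule, which stood at 384, 289 and 355 CPM in control and 1180, 978 and 1279 with cisplatin, with no overlap (1.74 ± 0.18).

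In the later nephron part of the markers fell. Of 16 genes of the connecting tubule and of principal cells, which reabsorb water and sodium, 8 fell and 0 rose (median -0.85). Calb1, the calcium buffer calbindin, stood at 303, 323 and 225 CPM in control and 12.7, 78.7 and 70.1 with cisplatin (-2.40 ± 0.53), and the sodium channel subunit Scnn1g fell from 31.7, 30.5 and 34.4 to 7.27, 16.4 and 13.7 CPM (-1.37 ± 0.27). Aqp2, the water channel that vasopressin inserts into the membrane, did not pass, with 132, 89 and 233 CPM in control and 197, 367 and 272 with cisplatin. Cisplatin replicate 1 had the lowest level of this list, with a median of -1.43 against the control mean, beside -0.24 and -0.74 in replicates 2 and 3. Of 14 genes of intercalated cells, which secrete acid or base, 8 fell and 1 rose (median -1.40). Foxi1, the transcription factor that defines these cells, did not pass (24.6, 26.9 and 24.6 CPM in control, 17.7, 42.4 and 29.8 with cisplatin). The ammonia channel Rhcg fell from 76.8, 69.9 and 70.9 to 5.15, 9.59 and 7.63 CPM (-3.28 ± 0.31) and the proton pump subunit Atp6v1b1 from 63.4, 53 and 54.8 to 11.6, 21.5 and 14.6 CPM (-1.84 ± 0.25). Slc4a1, the anion exchanger AE1, fell as well (49.5, 27.4 and 73.9 to 2.17, 1.88 and 1.49 CPM), but red cell precursors also make it, and the erythroid markers summed to 553, 263 and 604 CPM in control and to 1.25, 0.97 and 1.12 with cisplatin. The part of those cells in its fall was not tested.

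**Figure D3:**
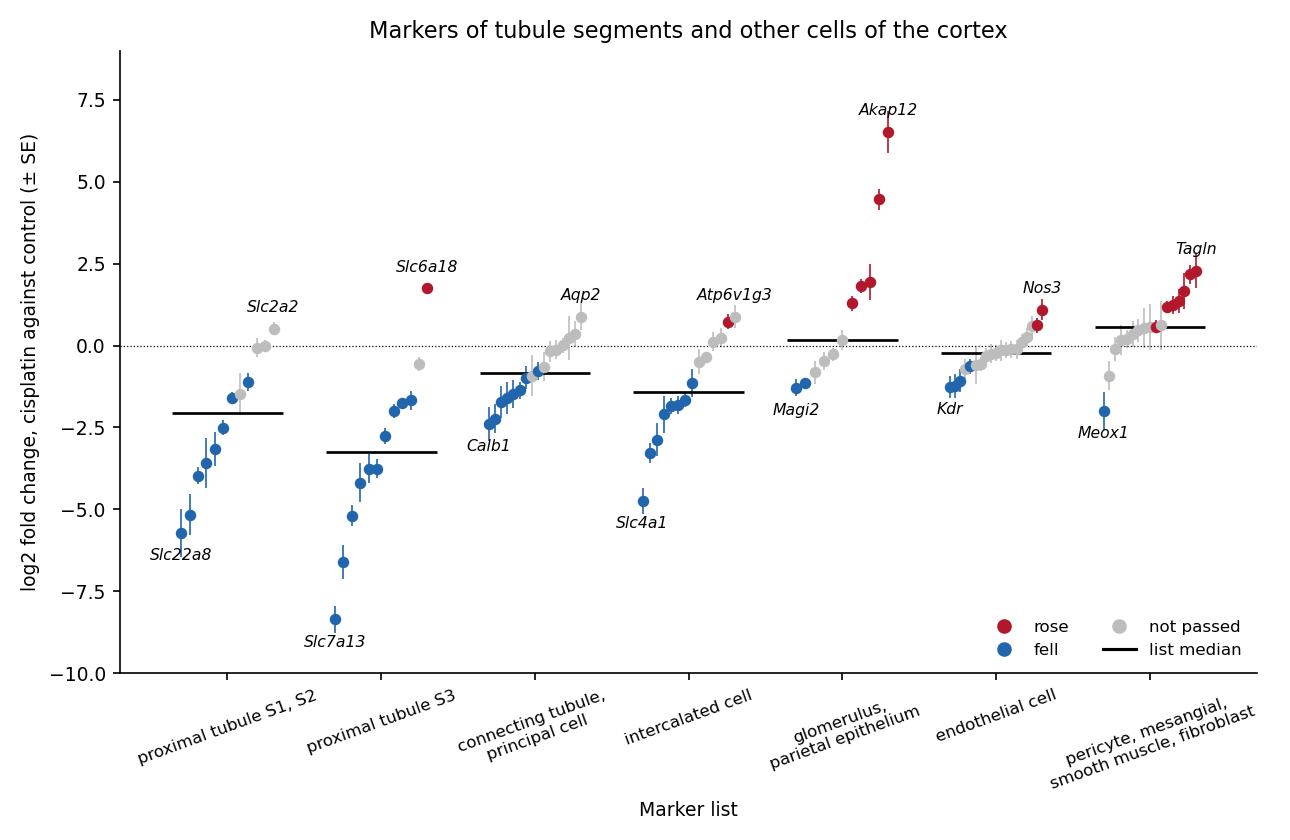
Log2 fold change, cisplatin against control, of each tested marker of 7 cell groups of the cortex, with its SE. Red points rose, blue points fell, grey points did not pass and black lines are list medians, from -3.26 for segment S3 of the proximal tubule to 0.57 for pericytes, smooth muscle and fibroblasts.

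Outside the tubule the picture was mixed. Of 19 endothelial genes, 4 fell and 2 rose (1 and 3 with library totals), under the shares of all genes in both directions, and the summed level of the list was 706, 661 and 817 CPM in control and 800, 891 and 401 with cisplatin, low in replicate 3 alone. Pecam1, the general endothelial adhesion molecule, did not pass (-0.13 ± 0.25). Kdr, the main receptor for VEGF, fell from 53.3, 47 and 51.5 to 27.8, 26.4 and 9.06 CPM (-1.26 ± 0.33), as did Ehd3 of glomerular capillaries (-1.24 ± 0.36). Nos3, the endothelial nitric oxide synthase, stood at 6.55, 7.14 and 7.42 CPM in control and 20.02, 16.8 and 8.19 with cisplatin (1.09 ± 0.32). In the annotation it overlaps Atg9b, which stood at 0.216 ± 0.195 CPM in control and 27.8 ± 18.4 with cisplatin, and whether counting used strand is not given in the sources used here, so their reads may not be told apart. The Nos3 call was lost without control replicate 1 (1.04) and cisplatin replicate 1 (0.83), 2 endothelial genes fell without control replicate 1, and 3 fell and 4 rose without cisplatin replicate 3.

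Of 17 genes of pericytes, mesangial cells, smooth muscle and fibroblasts, 7 rose and 1 fell. Pdgfrb and Pdgfra, receptors for platelet-derived growth factors on stromal cells, rose from 22.2, 32.1 and 28.3 to 71.7, 65.2 and 49.1 CPM (1.17 ± 0.19) and from 6.04, 7.87 and 11.8 to 44.2, 44.4 and 27.2 CPM (2.17 ± 0.29). Tagln, an actin-binding protein of smooth muscle, stood at 69.5, 86 and 15.3 CPM with cisplatin against 13.4, 10.1 and 11.7 in control, and Acta2, smooth muscle actin, at 47.8, 80.4 and 14.1 against 17.2, 13.4 and 14.2 CPM. Both were at or near control levels in cisplatin replicate 3, and the Acta2 groups overlap. Its call was lost without any single control library or without cisplatin replicate 1 or 2, with values of 1.06 to 1.78. Of 11 genes of the glomerulus and its parietal epithelium, 5 rose and 2 fell. Nphs1 did not pass (-0.27 ± 0.19), while the podocyte actin regulator Synpo rose from 29.7, 24.7 and 21 to 92, 70.9 and 102 CPM (1.81 ± 0.21) and Clic5, of podocyte foot processes, fell from 99.6, 111 and 97.5 to 51.1, 45.4 and 43 (-1.14 ± 0.16). The list's largest rises were in Cldn1, a tight junction protein of the parietal layer that tubule cells can also make (10.9, 10.1 and 10.3 to 260.46, 148 and 283 CPM, 4.47 ± 0.32), and Akap12, a kinase scaffold found in many cell types (9.1, 8.6 and 19.2 to 1316, 621 and 1461 CPM, 6.52 ± 0.63).

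Lymphocyte genes were scarce. Of 14 genes of T and NK cells 10 were removed by the filter, and their sum was 16.5, 4.59 and 3.44 CPM in control and 5.80, 7.59 and 3.23 with cisplatin. Cd8a was called lower, but it stood at 9.53, 1.68 and 0.397 CPM in control and 0.0543, 0.228 and 0 with cisplatin, so its control level rests on replicate 1, without which it was not called (-3.33). Jchain, which links antibody chains in plasma cells, fell from 16.5, 17.3 and 10.2 to 0.109, 1.94 and 0.372 CPM (-4.17, and -5.92 without cisplatin replicate 2). Of 7 adipocyte markers 4 were removed by the filter, among them Adipoq, the defining hormone of fat cells, which was at most 0.931 CPM in any library. The summed level of the 7 was 513, 582 and 705 CPM in control and 92.3, 104 and 84.7 with cisplatin. Only 1 tested member, Lpl, fell, so the lower sum describes Lpl and not the list. The part of fat cells in these counts was not tested. All 3 tested members changed: Lpl, lipoprotein lipase, fell (-4.06 ± 0.48), and Cidec, of lipid droplets, and Fabp4, a fatty acid carrier that endothelium also makes, rose (5.40 ± 1.08 and 0.83 ± 0.27). The haem enzyme Alas2 of red cell precursors had 1 count over the cisplatin libraries, 0.00221 times the control level (95% interval from counting error alone 5.58e-05 to 0.0124). Its fitted value was -8.30, with -7.67 without control replicate 3 and -10.07 without cisplatin replicate 2. It overlaps Apex2 in the annotation, which stood at 13.3 ± 2.52 CPM in control and 5.22 ± 0.847 with cisplatin.

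Transcription factors moved in 2 directions. Of 24 factors known to set tubule identity, 13 fell and 3 rose (median -0.73), and 12 and 5 with library totals. Hnf4a (Entrez gene 15378), the nuclear receptor that drives the proximal tubule programme, stood at 1375, 1300 and 1143 CPM in control and 262, 427 and 262 with cisplatin (-2.01 ± 0.21). The homeobox gene Emx1 fell furthest of those named, from 28.7, 30.8 and 24.5 to 2.39, 3.6 and 3.48 CPM (-3.15 ± 0.20). Esrra and its coactivator Ppargc1a, which drive mitochondrial genes, fell as well (-1.92 ± 0.16 and -1.51 ± 0.22). The 3 that rose, named after their values were seen, were Pax8 (1.16 ± 0.31), Ppara (0.57 ± 0.20) and Tfap2a (0.76 ± 0.27).

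Of 19 factors of injury, dedifferentiation and development, 14 rose and 0 fell (median 3.45). Sox9, which marks regenerating tubule cells, stood at 0.218, 0.801 and 0.265 CPM in control and 23.9, 31.5 and 98.3 with cisplatin (6.89 ± 0.72), highest in cisplatin replicate 3, and its value was 6.0 without that library and 7.67 without control replicate 2. Runx1 rose with little spread, from 1.31, 1.38 and 0.993 to 32, 26.9 and 29.8 CPM (4.58 ± 0.30). Myc, the growth regulator, rose from 2.55, 4.52 and 5.43 to 79.96, 57.3 and 110.30 CPM (4.30 ± 0.39), and Cebpb and Cebpd, factors of the acute phase, rose by 3.42 and 4.22. Of the factors tied to a mesenchymal state, all named after their values were seen, Zeb2 rose (0.78 ± 0.21), while Snai1 (0.74 ± 0.38), Snai2 (-1.15 ± 0.51) and Zeb1 (0.40 ± 0.19) did not pass.

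Most of the listed structural genes of epithelial shape and adhesion rose. Of 31 genes of actin, tubulin, annexins and their partners, 27 rose and 3 fell (median 1.85). The list does not hold every annexin. Anxa13, outside it, fell from a mean of 16.4 to 0.961 CPM (-4.08). Anxa6 (-0.05), Anxa9 (0.33) and Anxa11 (-0.12) did not pass, while Anxa1, Anxa2, Anxa3, Anxa4, Anxa5, Anxa7 and Anxa8 rose. These annexins were named after their values were seen. S100a6, a small calcium-binding protein, rose from 5.97, 4.74 and 9.21 to 905, 543 and 334 CPM (6.48 ± 0.48), Tmsb10, which binds actin monomers, from 18.8, 23.4 and 30.3 to 442, 438 and 674 CPM (4.42 ± 0.39), and Tubb2a, a beta tubulin, from 40.3, 28 and 30.8 to 251, 226 and 241 CPM (2.86 ± 0.25). Tubulin genes are close paralogs and their split is less certain. The 3 members of the list that fell are proteins of the brush border or its scaffold: villin Vil1 (-0.66 ± 0.16, named after its value was seen), Pdzk1 (2105, 1886 and 1788 to 232, 349 and 267 CPM, -2.77 ± 0.21) and Slc9a3r1 (-1.25 ± 0.13). Pdzk1 and Slc9a3r1 anchor transporters there.

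Of 17 integrins, laminins and the hyaluronan receptor Cd44, 14 rose and 2 fell (median 1.74). Cd44 rose from 1.16, 0.656 and 1.46 to 89, 130.22 and 74.5 CPM (6.47 ± 0.47). The integrin chains Itga3 (43.2, 42.4 and 59.3 to 521, 321 and 317 CPM, 3.00 ± 0.27) and Itgb3 (0.509, 0.947 and 1.72 to 36.6, 30.2 and 65 CPM, 5.35 ± 0.52) rose too. Those that fell were Itgb8 (-1.54, and -2.22 without cisplatin replicate 3) and Lama3 (-1.46 ± 0.27, named after its value was seen). Of 9 keratins tested, 5 rose and 0 fell. Krt8 and Krt18, which pair in simple epithelia, stood at 744, 460.30 and 473 and 281, 152 and 109.99 CPM with cisplatin against 133, 128 and 143 and 10.6, 9.03 and 15.2 in control. Both were highest in cisplatin replicate 1. The whole keratin list summed to 247, 236 and 288 CPM in control and 1711, 1184 and 2016 with cisplatin, highest in replicate 3, as were the urothelial markers. Krt20 had the highest log2 fold change of the list (12.39, and 11.60 without cisplatin replicate 3). The part of urothelium in the keratin counts was not tested. Among 25 junction proteins 13 rose and 4 fell. The claudins divided: Cldn4 (5.12 ± 0.35) and Cldn7 (2.15 ± 0.19) of tight distal epithelia rose, while Cldn2 (864, 746 and 678 to 388, 396 and 464 CPM, -0.87 ± 0.14), which lets cations pass in the proximal tubule, and Cldn10 (-2.68 ± 0.18) fell. The cadherins divided likewise, with Cdh1, E-cadherin, up by 0.94 ± 0.22 and Cdh16, the kidney cadherin, down (-0.88 ± 0.13).

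Most genes of coagulation and of extracellular proteases rose. Of 16 genes of coagulation and fibrinolysis, 12 rose and 1 fell (median 2.84). Plat, the tissue plasminogen activator, rose from 24.5, 22.4 and 27.7 to 377, 279 and 432 CPM (3.86 ± 0.19), and F3, tissue factor, from 16.7, 20.4 and 14.6 to 95, 75 and 111 CPM (2.44 ± 0.24). Plau, the urokinase that the tubule also makes without injury, did not pass (510.22, 403 and 613 CPM in control, 986, 459.50 and 1007 with cisplatin). The fibrinogen chains Fga and Fgg stood highest in cisplatin replicate 3 (655, 562 and 1557 and 130.25, 136 and 538 CPM against 13.8, 12.2 and 18.1 and 0.8, 1.02 and 0.397), at 5.97 and 8.50 on the log2 scale and at 5.36 and 7.49 without that library. Of 20 extracellular proteases and inhibitors, 14 rose and 3 fell. Adamts4, an aggrecanase, had 2 counts over the control libraries and 12.3, 9.93 and 16.8 CPM with cisplatin, 274 times the control level (95% interval from counting error alone 75.5 to 2267). Its fitted value moved from 7.89 to 10.71 without control replicate 3. Serpinb9, an inhibitor of granzyme B, rose from 25.2, 18.6 and 24.2 to 171, 189.59 and 258 CPM (3.18 ± 0.19). Timp3, an abundant inhibitor of metalloproteases, fell from 2979, 3728 and 3356 to 1154, 1089 and 1235 CPM (-1.53 ± 0.15). It lies within Syn3, which stood at 57.1 ± 8.83 CPM in control and 2.69 ± 0.504 with cisplatin.

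**Figure D4:**
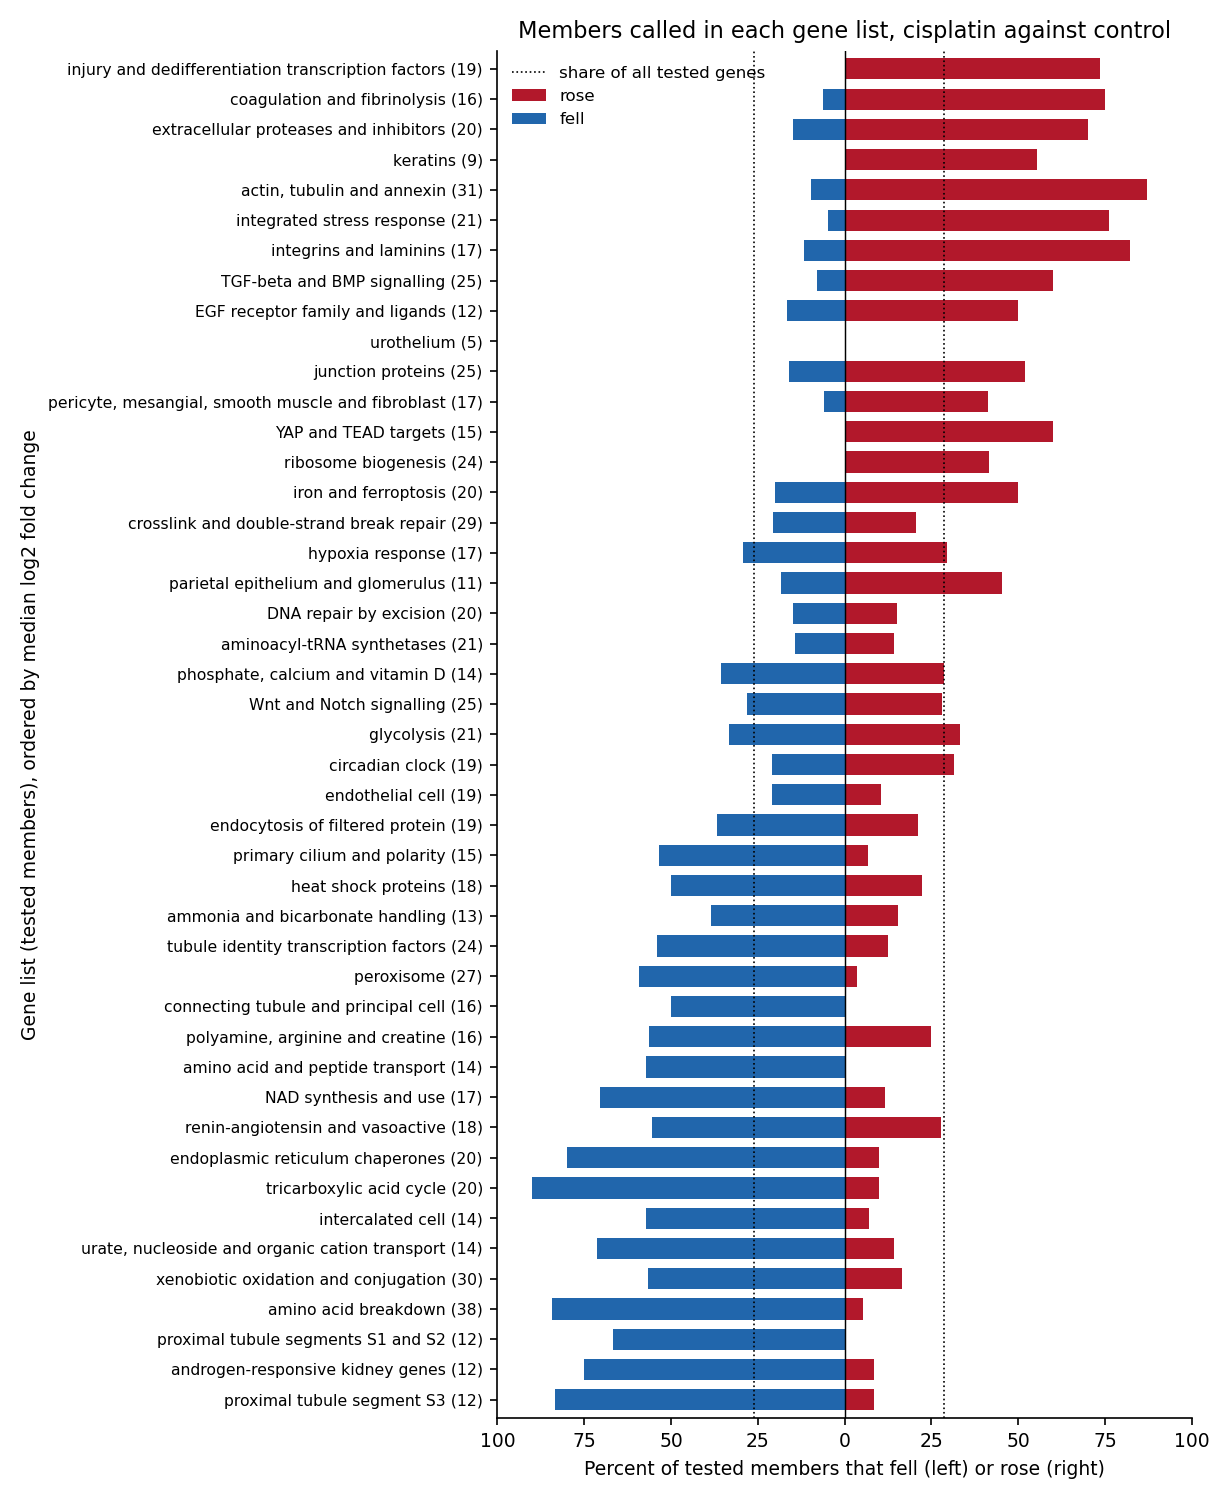
Share of the tested members of each gene list that fell (blue, left) or rose (red, right), in percent, for lists with at least 5 tested members (number in brackets), ordered by median log2 fold change. Dotted lines give the shares of all tested genes, 28.6% higher and 26.0% lower, and red bars are longer towards the top and blue bars towards the bottom.

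Of 12 genes of the EGF receptor family and its ligands, 6 rose and 2 fell (median 0.96). Egf itself, made by the thick ascending limb and distal tubule, fell from 1223, 922 and 1681 to 47.6, 19.1 and 30.4 CPM (-5.30 ± 0.49). Nrg1 rose from 11.1, 7.94 and 12.3 to 120.27, 62.5 and 109 CPM (3.22 ± 0.27), Hbegf from 28.9, 29.1 and 24.1 to 86.9, 85.8 and 42.4 CPM (1.39 ± 0.24) and Tgfa from 4.07, 4.01 and 6.62 to 33.7, 23.3 and 19.5 CPM (2.38 ± 0.32). Ereg had 0 counts in control and stood at 3.91, 1.54 and 2.98 CPM with cisplatin, at least 40.1-fold higher when its control sum is set to the floor of 3 counts. Areg, with 1 count in control, stood at 5.97, 10.6 and 73.5 CPM, 1210 times the control level (95% interval from counting error alone 217 to 47831), and it was highest in cisplatin replicate 3. Its fitted value was 9.90, with 11.93 without control replicate 1 and 8.05 without cisplatin replicate 3. Another ligand, Btc, did not pass (0.17 ± 0.41). Of the receptors, Erbb3 rose (1.28 ± 0.23), Erbb4 fell (-1.54 ± 0.37), and Egfr (0.64 ± 0.25) and Erbb2 (-0.13 ± 0.16) did not pass. Btc and the receptors other than Egfr were named after their values were seen.

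Of 25 genes of TGF-beta and BMP signalling, 15 rose and 2 fell (median 1.01), and 19 rose and 0 fell with library totals. Tgfb1 rose from 14.6, 14.1 and 17.3 to 78.4, 77.3 and 72.2 CPM (2.31 ± 0.26), Inhbb, the activin beta B chain, from 0.509, 0.437 and 1.19 to 36.4, 50.2 and 34 CPM (5.78, and 6.38 without control replicate 3), and Bmp6 from 48.1, 50.1 and 33.1 to 249, 179.66 and 213 CPM (2.29 ± 0.24). Bmp7, which maintains tubule epithelium, was called lower (41.1, 60.6 and 56.8 CPM in control, 34, 36.3 and 24 with cisplatin, -0.75 ± 0.22) and missed the threshold without control replicate 2 (-0.64). Of 15 targets of the mechanosensitive factors YAP and TEAD, 9 rose and 0 fell, but 4 without control replicate 1 or without control replicate 2. Axl, a receptor kinase, rose from 22.5, 16.5 and 26.2 to 198, 228 and 152 CPM (3.15 ± 0.24). Ccn2, a matricellular protein, stood at 638, 324 and 73.3 CPM with cisplatin against 32.2, 37.8 and 32.1, and its value was 3.34 and 2.55 without cisplatin replicate 1. Wnt and Notch genes moved both ways, 7 up and 7 down of 25, close to the shares of all genes. The Wnt inhibitors Sfrp1 (112, 107 and 100.40 to 6.73, 8.51 and 7.76 CPM, -3.79 ± 0.15) and Dkk2 (-2.47 ± 0.25) fell, and the ligand Wnt4 rose from 1.09, 0.874 and 1.19 to 5.1, 3.71 and 3.54 CPM (1.96 ± 0.36).

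Transcripts of the central mitochondrial pathway fell at nearly every step. Of 20 genes of the tricarboxylic acid cycle and its entry points, 18 fell and 2 rose (median -1.30). Pcx, pyruvate carboxylase, fell from 788, 699 and 749.93 to 181, 177 and 163 CPM (-2.10 ± 0.13) and Ogdh, of the oxoglutarate dehydrogenase complex, from 1175, 1048 and 1151 to 390.11, 450.08 and 435 CPM (-1.40 ± 0.13). Citrate synthase Cs, at the entry, changed least of those named, from 454, 418 and 448 to 302, 321 and 316 CPM (-0.49 ± 0.13). One of the 2 that rose was Pdk4 (Entrez gene 27273), the kinase that shuts off pyruvate dehydrogenase, with 12.4, 9.69 and 15 CPM in control and 741, 988 and 1361 with cisplatin (6.38 ± 0.48). The other, named after its value was seen, was Idh1, the cytosolic isocitrate dehydrogenase (0.77 ± 0.19). Of 21 genes of glycolysis, 7 rose and 7 fell (33.3% each), against 28.6% and 26.0% of all genes. The hexokinase Hk2, low in the healthy tubule, rose from 0.655, 0.51 and 0.53 to 18.4, 17.9 and 23.7 CPM (5.13 ± 0.37), and Pfkfb3, which raises flux through phosphofructokinase, from 11.6, 14.9 and 28.3 to 70.7, 94 and 83.5 CPM (2.17 ± 0.28). The phosphofructokinase isoforms parted, with Pfkm down (46.6, 47.7 and 51.1 to 11, 18.7 and 13.8 CPM, -1.74 ± 0.19) and Pfkp up (45.7, 49.2 and 53.2 to 75, 90.8 and 73.2 CPM, 0.69 ± 0.13). The aldolase Aldoa did not pass (0.07 ± 0.18).

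Of 38 genes that break down amino acids, 32 fell and 2 rose (median -1.83). The carboxylase Mccc1 of leucine breakdown stood at 222, 210.11 and 233 CPM in control and 28, 28.2 and 28.1 with cisplatin (-2.98 ± 0.19). Ivd, one step earlier on the same route, fell from 611, 541 and 472 to 60.9, 70.9 and 78 CPM (-2.95 ± 0.18). Cbs, which starts transsulfuration of homocysteine, fell from 490.21, 331 and 412 to 42.6, 41.3 and 55.9 CPM (-3.14 ± 0.20). The 2 that rose, named after their values were seen, were Glud1 (0.61 ± 0.14), which releases ammonia from glutamate, and Ddc (0.87 ± 0.30), which makes dopamine. Gatm, the first enzyme of creatine synthesis, fell from 734, 759 and 651 to 36.5, 49 and 22.2 CPM (-4.31 ± 0.57).

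Cofactor and peroxisomal genes fell with them. Of 17 genes of NAD synthesis and use, 12 fell and 2 rose (median -0.95). The route from tryptophan lost Haao (300.22, 265 and 238 to 14.4, 28.3 and 20.3 CPM, -3.67 ± 0.25), Afmid (293, 265 and 243 to 36.7, 40.5 and 33.4 CPM, -2.86 ± 0.22) and Acmsd, which diverts it away from NAD (117, 95.4 and 107 to 2.06, 5.14 and 1.43 CPM, -5.20, and -5.91 without cisplatin replicate 2). Nampt, of the salvage route, did not pass (154, 155 and 141 CPM in control, 106, 152 and 166 with cisplatin). Those that rose, named after their values were seen, consume NAD or its precursor: Cd38 (2.30 ± 0.42) and Nnmt (3.57 ± 0.63). Of 27 peroxisome genes, 16 fell and 1 rose. Amacr, the racemase of branched acids, fell from 808, 698 and 769 to 19.6, 26.1 and 18.2 CPM (-5.15 ± 0.22).

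Of 30 genes of xenobiotic oxidation and conjugation, 17 fell and 5 rose. Taken by symbol, the cytochrome P450 family (Cyp) had 16 risers (37.2%) and 15 fallers (34.9%) of 43, against 28.6% and 26.0% of all genes. The ABC transporters (Abc) had 9 risers (24.3%) and 14 fallers (37.8%) of 37, and 10 and 10 with library totals. Cyp2e1, a cytochrome P450, fell from 2765, 3272 and 2824 to 65.1, 103 and 109.80 CPM (-5.00 ± 0.35) and Ugt2b38, a glucuronosyltransferase, from 2347, 3043 and 2487 to 45.5, 53.5 and 51.3 CPM (-5.71 ± 0.34). Those that rose included, named after their values were seen, Gsta1 (5.89 ± 0.96), a glutathione transferase with close paralogs, Cyp1b1 (3.43 ± 1.28), Ephx1 (3.20 ± 0.32) and Gstm5 (1.49 ± 0.23). Of 14 carriers and enzymes of urate, nucleosides and organic cations, 10 fell and 2 rose. Slc22a12, the urate transporter URAT1, fell from 2806, 2357 and 2351 to 218, 193 and 124 CPM (-3.81 ± 0.26), and Slc47a1, the exporter MATE1 that passes organic cations, cisplatin among them, into urine, from 1041, 993 and 929 to 243, 222 and 225 CPM (-2.10 ± 0.14). Xdh, which makes urate, rose from 13.8, 9.18 and 19.2 to 168, 144 and 218 CPM (3.65 ± 0.30). Of 14 amino acid and peptide transporters, 8 fell and 0 rose, Slc1a1 and Slc7a9 among them (-1.76 ± 0.12 and -1.46 ± 0.22).

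Genes that androgens maintain in male mouse kidney mostly fell: 9 of 12 fell and 1 rose (median -3.15). Besides Kap and Slc7a13 they included Acsm3 (2194, 2271 and 2632 to 70.5, 96 and 67.7 CPM, -4.92 ± 0.40) and Odc1, which makes polyamines (3529, 2813 and 3616 to 645, 478 and 267 CPM, -2.84 ± 0.30). Slco1a1, an organic anion carrier, stood at 716, 773 and 735 CPM in control and 3.96, 7.02 and 35.4 with cisplatin (-5.59, and -7.08 without cisplatin replicate 3). The one that rose was Cyp4a12b (3.06, 4.74 and 3.38 to 98.2, 63.4 and 59.1 CPM), whose near-identical paralog Cyp4a12a fell (-3.45 ± 0.39, named after its value was seen), so the split between them is uncertain. These genes are also proximal tubule genes, and both traits cannot be told apart here.

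Of 19 genes of the endocytosis of filtered protein, 7 fell (36.8%) and 4 rose (21.1%), against 26.0% and 28.6% of all genes. Lrp2 and Cubn, the receptors megalin and cubilin, fell from 3083, 3413 and 3290 to 372, 240.11 and 201 CPM (-3.59 ± 0.29) and from 709, 857 and 898 to 101, 91.5 and 76.9 CPM (-3.20 ± 0.20). The 4 that rose, named after their values were seen, were the lysosomal proteases Ctsl (2.14 ± 0.37), Ctsd (1.79 ± 0.26), Ctsb (1.31 ± 0.23) and Lgmn (0.77 ± 0.18), which phagocytes also make. Of 13 genes of acid and ammonia handling, 5 fell (38.5%) and 2 rose (15.4%), against the same shares of all genes. Those that fell included the membrane carbonic anhydrase Car4 (349.63, 341 and 336 to 7.49, 13.4 and 9.68 CPM, -5.07 ± 0.29) and the sodium proton exchanger Slc9a3 (151, 154 and 211 to 82.5, 55.7 and 72.4 CPM, -1.29 ± 0.18). Pck1 did not pass (3159, 3474 and 2414 CPM in control, 1078, 2460 and 612 with cisplatin).

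Stress responses of protein synthesis went in opposite directions. Of 21 genes of the integrated stress response, which ATF4 drives when translation is curbed, 16 rose and 1 fell (median 1.76). Ppp1r15a, which ends the response, rose from 15.1, 12.5 and 15 to 106, 89.1 and 94 CPM (2.76 ± 0.17), Asns, asparagine synthetase, from 3.64, 2.04 and 2.78 to 21.4, 14.3 and 18.1 CPM (2.67 ± 0.30), and Ddit3, the factor CHOP, from 12.8, 13.3 and 10.3 to 27.9, 21.8 and 22.7 CPM (0.99 ± 0.16). Ddit3 overlaps Mbd6 (47.3 ± 6.53 CPM in control and 57.4 ± 3.02 with cisplatin) and Mars1 (40.9 ± 5.29 and 44.9 ± 7.92 CPM) in the annotation. The messenger of Atf4 did not pass (0.31 ± 0.21), and Shmt2, of mitochondrial one-carbon metabolism, was the member that fell (465, 368 and 385 to 61.1, 79.6 and 65.4 CPM, -2.56 ± 0.19). Of 20 chaperones of the endoplasmic reticulum, by contrast, 16 fell and 2 rose (median -1.22). Hspa5, the chaperone BiP, stood at 1195, 1116 and 843 CPM in control and 338, 262 and 324 with cisplatin (-1.77 ± 0.19), and Calr, calreticulin, fell from 1615, 1283 and 1342 to 526, 463 and 542 CPM (-1.47 ± 0.16). The 2 that rose, named after their values were seen, were the factor Xbp1 (0.85 ± 0.27) and the oxidase Ero1a (0.60 ± 0.14).

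Heat shock proteins fell more often than they rose (9 and 4 of 18). Hsph1 fell from 249.58, 228 and 194 to 66.1, 40.5 and 41 CPM (-2.18 ± 0.21) and the mitochondrial chaperonin Hspd1 from 707, 695 and 562 to 181, 178 and 143 CPM (-1.97 ± 0.22). The risers, named after their values were seen where not given with libraries, were the small heat shock proteins Hspb1 (14.3, 7.87 and 9.07 to 303, 316 and 831 CPM, 5.54, and 4.89 without cisplatin replicate 3), Hspb8 (2.38 ± 0.34) and Cryab (3.42 ± 0.47), and their partner Bag3 (0.43 ± 0.16). Hspa1a, the inducible HSP70, was called lower (-1.06 ± 0.39) but not without control replicate 1 (-0.55) or cisplatin replicate 3 (-0.77), and reads may be divided imperfectly with its paralog Hspa1b. Of 24 ribosome biogenesis genes 10 rose and 0 fell, all by less than 2-fold, and 4 rose without control replicate 1, control replicate 3 or cisplatin replicate 1. Npm1, nucleophosmin, was the largest of them (102, 135 and 86 to 199.64, 198 and 218 CPM, 0.93 ± 0.21). Of 21 aminoacyl-tRNA synthetases 3 rose and 3 fell, and 10 rose and 1 fell with library totals.

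Of 20 genes of excision repair, which removes platinum adducts within a strand, 3 rose and 3 fell (15% each), and of 29 genes that repair crosslinks and double-strand breaks 6 rose and 6 fell (20.7% each), against 28.6% and 26.0% of all genes. With library totals, 7 rose and 1 fell in the first list and 7 and 3 in the second. The difference from the shares of all genes was not tested. Xpc, which finds the lesion, did not pass (42.9, 39.5 and 48.3 CPM in control, 44.9, 40.6 and 51.2 with cisplatin, 95% interval -0.23 to 0.36). Ercc1 (Entrez gene 13870), a subunit of the nuclease that cuts beside the lesion, stood at 9.46, 7.07 and 8.74 CPM in control and 228, 118 and 70.2 with cisplatin (4.04 ± 0.43), whereas its partner, Ercc4, did not pass (-0.16 ± 0.15, named after its value was seen). Ercc1 overlaps Cd3eap in the annotation, which stood at 11.3 ± 0.193 CPM in control and 17.2 ± 0.808 with cisplatin. Ercc5, which cuts on the other side, rose from 14, 16.9 and 13 to 40.1, 39.2 and 28.8 CPM (1.3 ± 0.17). Of the polymerases that copy past damage, Polk rose from 9.68, 9.03 and 10.9 to 38.4, 33.7 and 19.5 CPM (1.63 ± 0.25), as did Mad2l2 of polymerase zeta (22.4, 18.1 and 16.2 to 46.2, 51.8 and 65.2 CPM, 1.52 ± 0.18). Prkdc, the kinase of end joining, fell from 24.6, 27 and 24.7 to 11, 10.3 and 10.3 CPM (-1.27 ± 0.18), and Parp1 fell by less (-0.59 ± 0.12).

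Of 14 genes of phosphate, calcium and vitamin D handling, 4 rose (28.6%) and 5 fell (35.7%), near the shares of all genes (28.6% and 26.0%). Kl (Entrez gene 16591), which encodes klotho, the coreceptor for the phosphate hormone FGF23, stood at 1030, 1089 and 1138 CPM in control and 39, 65 and 50.1 with cisplatin (-4.40 ± 0.21). Pth1r, the receptor for parathyroid hormone, fell from 1056, 884 and 848 to 132, 194 and 184 CPM (-2.45 ± 0.18). Cyp24a1, which inactivates vitamin D, stood at 150.06, 490.05 and 212 CPM with cisplatin against 13.2, 52.2 and 29.7 in control (3.16, and 2.52 without cisplatin replicate 2), and Slc20a1, a phosphate carrier found in most cells, rose from 43.5, 47 and 52.5 to 305, 251 and 435 CPM (2.79 ± 0.26). Of 18 genes of the renin-angiotensin system and other vasoactive signals, 10 fell and 5 rose, and 9 fell and 8 rose with library totals. Renin, Ren1, fell from 65.9, 94.9 and 49.1 to 24.5, 38 and 27.1 CPM (-1.23 ± 0.32) and Ace, of the brush border and vessels, from 641, 612 and 702 to 33.4, 48.5 and 111 CPM (-3.34, and -3.99 without cisplatin replicate 3). Edn1, endothelin, rose from 1.67, 1.24 and 3.11 to 28.9, 19.98 and 24.8 CPM (3.60 ± 0.33). Of 17 genes of the hypoxia response, 5 rose and 5 fell (29.4% each), near the shares of all genes (28.6% and 26.0%). Among them Hilpda, of lipid droplets, rose from 1.24, 1.38 and 1.26 to 27.8, 23.7 and 28.9 CPM (4.37 ± 0.28), and Vegfa fell from 214, 229 and 211 to 49.3, 80.4 and 60.6 CPM (-1.78 ± 0.22).

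Iron, polyamine, clock and cilium genes complete the lists. Tfrc, the transferrin receptor, fell from 141, 143 and 158 to 34.6, 28.2 and 31.2 CPM (-2.23 ± 0.18) while Acsl4, which loads membranes with oxidisable lipid, rose from 29.2, 41.7 and 29.4 to 199, 269 and 478 CPM (3.24 ± 0.32), within a list of 20 iron and ferroptosis genes of which 10 rose and 4 fell. Of 16 genes of polyamine, arginine and creatine metabolism 9 fell and 4 rose. Around Odc1, the polyamine oxidase Smox (6.99, 6.85 and 5.76 to 62, 68 and 146 CPM, 3.82 ± 0.39) and the arginase Arg2 (18.8, 14.6 and 22.1 to 149, 195 and 175 CPM, 3.22 ± 0.25) rose. Of 19 genes of the circadian clock 6 rose (31.6%) and 4 fell (21.1%), near the shares of all genes (28.6% and 26.0%). Per1 rose from 25.1, 33.7 and 29.2 to 133, 147 and 114 CPM (2.16 ± 0.18) and Bhlhe40 from 154, 126 and 146 to 332, 371 and 545 CPM (1.55 ± 0.19), Hlf fell from 203, 209 and 169 to 16.6, 22.9 and 5.34 CPM (-3.69 ± 0.45), and Arntl, the core activator BMAL1, varied within both groups (31.1, 8.52 and 7.81 CPM in control, 16.1, 8.68 and 23.5 with cisplatin). The time of day of sampling is not in the labels used here, and its part in the clock genes was not tested. Of 15 genes of the primary cilium and cell polarity, 8 fell and 1 rose, and 5 fell and 2 rose with library totals. Ift88, of ciliary transport, was among those that fell (24.3, 24.1 and 23.7 to 8.08, 9.02 and 12.8 CPM, -1.27 ± 0.22).

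Because counts were deposited per transcript, the choice of transcript within a gene could be compared too. Of 8216 genes with at least 2 tested transcripts, 150 (1.83%) passed at an adjusted p under 0.05 with a transcript whose share of its gene moved by at least 20 percentage points. Of the 150, 94 were also called at the gene level, 38 higher and 56 lower, beside 54.6% of all tested genes, 28.6% higher and 26.0% lower. The difference from those shares was not tested. The count depended on single libraries and on the tool: 78 to 101 genes passed when 1 library was left out, fewest without control replicate 1, and 511 with limma.

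Dab2, an adaptor that links megalin to clathrin, did not pass in its total (751, 769 and 699 CPM in control, 884, 701 and 1260 with cisplatin, 0.36 ± 0.21), while its transcripts changed places. Its transcript NM_001008702.2 held 86.2, 85.6 and 85.7% of its counts in the control libraries and 4.94, 14.6 and 8.21% with cisplatin. NM_001037905.3 held 1.93, 0.104 and 0.0189% in control and 71.1, 56.1 and 68.1% with cisplatin. Cndp2, a dipeptidase, which also fell in total (-2.58), moved from NM_023149.3 (84.2, 82.3 and 89.3% in control, 15.4, 24 and 14.9% with cisplatin) to NM_001289531.1. Timd2, a ferritin receptor, moved from NM_001161355.1 (79.3, 76.3 and 81.1% in control, 17.6, 14.7 and 10.7% with cisplatin) to NM_134249.5, with no change called in its total (-0.35 ± 0.17). Hsd11b1, which regenerates active glucocorticoid, moved away from XM_006497228.2 (78.3, 83.6 and 85.5% in control, 15, 13 and 29.4% with cisplatin) and fell in total (-1.96 ± 0.33). Mkks and Ak1 showed shifts of similar size at low levels (a mean of 41.8 and 17.2 CPM in control), as did Foxn2. Znrf1 overlaps the abundant gene Ldhd (1874 ± 63.9 CPM in control and 551 ± 325 with cisplatin), so its shift may include reads of that gene. In these libraries RSEM divided reads between transcripts that share most of their sequence, and the error of that step is not in the test.

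**Figure D5:**
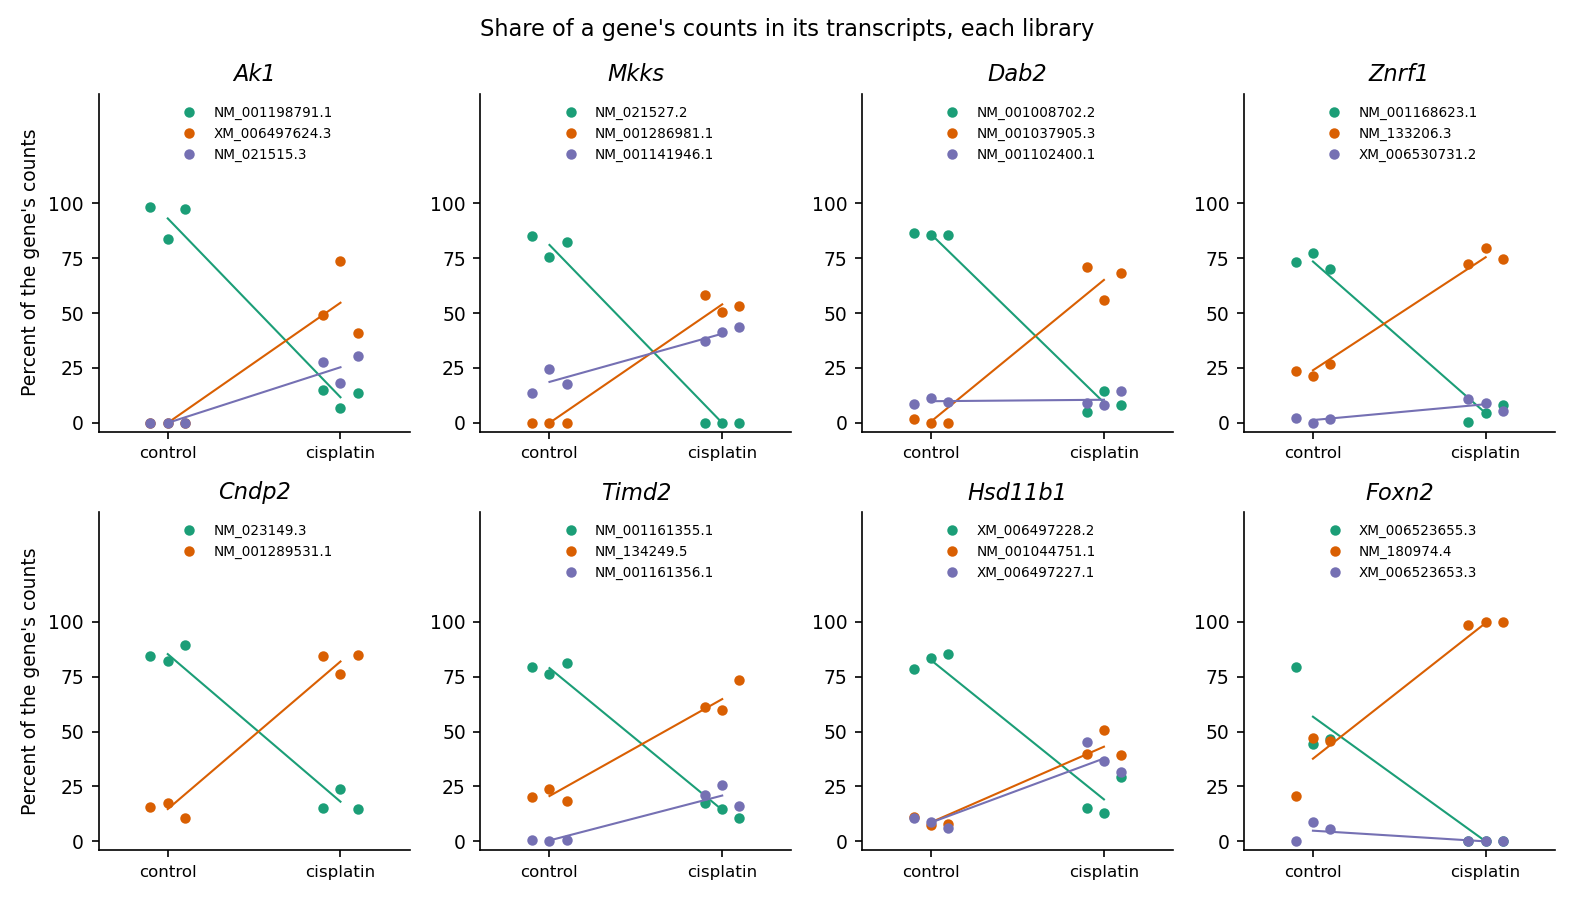
Share of a gene's counts in up to 3 of its transcripts, in percent, in each of 3 control and 3 cisplatin libraries, for the 8 genes with the largest shift. Points are libraries and lines join the group means, and in each panel the transcript that leads in control (green) falls below another with cisplatin.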

How the data were processed

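RNA-seq of kidney cortex was compared between 3 control and 3 cisplatin libraries, and 3 libraries of another group entered the estimate of the spread. The authors deposited expected counts per transcript, made with RSEM 1.3.1 per the submitters' processing notes, which also name DESeq2 1.4.5 and the build GRCh38, a human build. Aligner and mouse build: not given in the sources used here. A second set of deposited columns is taken as FPKM from its values, since it behaves as counts per length and depth, and it was used only to rank levels between genes. Expected counts were summed per gene and then rounded, and symbols came from RefSeq GRCm38.p6 for 17847 of 17963 genes.

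edgeR 4.0.16 (R 4.3.3) fitted all 9 libraries by group, with TMM scaling, its filter on low counts (13954 genes kept) and the quasi-likelihood test, adjusted over all genes tested by Benjamini-Hochberg at 0.05. CPM values use the TMM-scaled library sizes. Reads of genes that overlap in the annotation may not be told apart, since strand use is not given in the sources used here. Beside the overlaps given in the text, Tagln overlaps Pcsk7, Pfkm overlaps Senp1 and Mrpl44 overlaps Wdfy1, among others. Transcript usage was tested with edgeR's exon-usage test on transcripts, adjusted per gene by Simes, with a minimum shift of 20 percentage points. The scripts were tested on simulated data. Library totals ranged from 15033546 to 16690471, and counting intervals and floors (3 counts) cover counting error only. Alternatives were DESeq2 1.42.0 and its size factors, limma 3.58.1, library totals, other filters, the 6 libraries alone, a replicate block and leaving out each library.

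The comparison, the gene lists (908 of 910 entries matched) and the tests were chosen with earlier results of these data known. Genes named are the 15 of highest FPKM in each group, the 10 largest rises and falls in CPM, the key genes of each list with up to 4 called members of smallest p, the 8 nearest to no change at 50 CPM or more, the 8 largest usage shifts, 4 promoters, and the extremes of each symbol family. Genes outside this rule are marked in the text, and 7 genes within the rule or the lists are not reported here.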

Additional observations from a re-analysis of the deposited data

How the results depend on the processing

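Called genes numbered 7616 in the main test, 7628 with DESeq2 size factors, 7839 with library totals, 7782 without the filter, 6533 at 5 CPM or more in 3 libraries, 7859 with DESeq2, 7516 with limma-voom, 7380 with the 6 libraries alone, and 6576 to 7409 with 1 library left out. With library totals 66.1% of the calls were higher, against 52.4%, and the median log2 fold change of all genes was 0.27, against 0.04. Genes called for transcript usage numbered 150 in the main test, 511 with limma, and 78 to 101 with 1 library left out. With the replicate number as a block, 7348 genes and 92 usage genes were called. The same-numbered control and cisplatin libraries had correlations of deviations of -0.12, -0.04 and -0.08, and the other pairs -0.04 to 0.13. The labels do not say what the number stands for, and a shared batch cannot be told from 3 libraries a group. With library totals, 10 of 21 aminoacyl-tRNA synthetases, 7 of 20 excision repair genes and 4 of 38 genes of amino acid breakdown rose, against 3, 3 and 2, and 5 of 15 cilium genes and 1 of 19 endothelial genes fell, against 8 and 4. At 5 CPM or more, 9 proteases and inhibitors rose, against 14. Having 3 libraries a group limits precision, and 5667 genes had a 95% interval within 2-fold of no change. Of the named genes reported here, 21 took the other sign in some setting (66 gene and setting pairs), and 0 of these pairs passed the test in the main test or the setting. With DESeq2 size factors the log2 fold changes were -0.0038 for Gpx3, -0.0052 for Jag1, -0.0056 for Fnbp1, -0.0020 for Hnrnpk. With DESeq2 the log2 fold changes were -0.0038 for Gpx3, -0.0052 for Jag1, -0.0056 for Fnbp1, -0.0019 for Hnrnpk. With library totals the log2 fold changes were 0.14 for Gapdh, 0.11 for Pecam1, 0.14 for Nampt, 0.21 for Nfx1, 0.22 for Sbf2, 0.21 for Btf3l4, 0.21 for Zbtb7a, 0.21 for Seh1l, 0.044 for Znrf1. Without the filter the log2 fold changes were -0.00050 for Jag1, -0.0016 for Fnbp1. With limma-voom the log2 fold changes were -0.013 for Jag1. At 5 CPM or more the log2 fold changes were 0.013 for Sbf2, 0.0071 for Btf3l4, 0.0067 for Zbtb7a, 0.0076 for Seh1l. With 1 library left out they ranged from -0.20 to 0.29 for Gpx3, -0.17 to 0.00079 for Gapdh, -0.14 to 0.41 for Gpx1, -0.092 to 0.51 for Foxi1, -0.29 to 0.13 for Pecam1, -0.65 to 1.03 for Wnt7b, -0.23 to 0.22 for Jag1, -0.018 to 0.21 for Aldoa, -0.031 to 0.14 for Xpc, -0.35 to 0.97 for Arntl, -0.22 to 0.087 for Nampt, -0.018 to 0.065 for Prpf6, -0.068 to 0.052 for Fnbp1, -0.054 to 0.016 for Nfx1, -0.079 to 0.060 for Sbf2, -0.10 to 0.044 for Btf3l4, -0.076 to 0.059 for Zbtb7a, -0.042 to 0.048 for Hnrnpk, -0.090 to 0.042 for Seh1l, -0.75 to 0.13 for Znrf1, -0.057 to 0.41 for Foxn2.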

Other observations

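Gene families taken by symbol prefix were described beside the lists, with their counts set against 28.6% higher and 26.0% lower of all tested genes. Of 306 solute carriers (Slc) 131 fell (42.8%) and 66 rose (21.6%), and their summed level was 58784, 53026 and 52162 CPM in the control libraries and 20697, 21803 and 21797 with cisplatin. Of 78 mitochondrial ribosomal proteins (Mrp) 46 fell (59.0%) and 4 rose, of which Mrpl44 (61, 51.4 and 53.8 to 24.8, 18.3 and 27.1 CPM, -1.24 ± 0.16) and Mrpl33 (17.3, 20.3 and 14.9 to 71.4, 53.9 and 52.4 CPM, 1.76 ± 0.21) had the largest fall and rise. With library totals in place of composition scaling, 24 fell and 8 rose. Of 14 glucuronosyltransferases (Ugt) 9 fell and 2 rose, and Ugt3a1 fell from 632, 671 and 618 to 7.27, 7.42 and 17.9 CPM (-5.89 ± 0.45).

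On the other side, 16 of 26 serpins (Serpin) rose and 5 fell, and 10 of 15 genes of the TNF receptor family (Tnfrsf) rose and 0 fell, among them Tnfrsf23 (1.16, 1.68 and 1.79 to 67.5, 38.9 and 62.6 CPM, 5.18 ± 0.41). Of 26 integrins (Itg) 16 rose, and of 41 tripartite motif genes (Trim) 18 rose and 3 fell, among them Trim6 (0.509, 0.947 and 0.53 to 12.5, 13.2 and 11.8 CPM, 4.23 ± 0.29). Of 54 translation initiation factors (Eif) 18 rose and 7 fell, and 34 rose and 3 fell with library totals. Eif4ebp1, which holds back cap-dependent translation, rose from 9.82, 8.16 and 10.4 to 149, 96 and 140.46 CPM (3.76 ± 0.28). Among zinc finger genes named Zfp the counts were 55 higher (15.5%) and 77 lower (21.8%) of 354, and 84 higher and 45 lower with library totals. Slc6a19os, the riser with the highest log2 fold change among genes whose symbol begins with Slc, is antisense to Slc6a19 (5.36 ± 0.77, and 4.62 without cisplatin replicate 3), and without strand its reads and those of Slc6a19 cannot be told apart.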
